A study of Mus musculus with 70 samples.

Results

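Passages 4 and 6 of GFP-RENCA cells recovered from the lungs of mice after tail-vein injection (T-LM P4 and T-LM P6) were compared on single-colour mouse expression arrays. The members were the 4 samples titled as tail passage 4 and the 4 titled as tail passage 6, that is 8 of the 70 samples of the series. RENCA is a renal adenocarcinoma line that arose in a BALB/c mouse, and all cells of the series, the unpassaged parental cells (P0) included, carried a green fluorescent protein (GFP) from a lentivirus. At each passage the cells were injected into the tail vein of wild type female BALB/c mice of 6 weeks. The lung metastases were then digested and the cells grown in culture until GFP-negative cells were no longer seen, and these cultures seeded the next injection and gave the RNA. P4 and P6 samples thus shared strain, tumour line, route and host organ, and differed by 2 further rounds of injection and recovery. The labels do not say that replicates came from separate mice. The p-values measure the spread within all groups fitted together, which may in part be technical. These were the parental cells and T-LM P2 to P6, joined by kidney passages P2 to P6 where routes were compared. A gene that varied within another passage can thus miss the threshold although its P4 and P6 samples do not overlap. Kidney tumour lines of the same passages (KPT P4 and KPT P6, cells injected into and recovered from the kidney) served to test whether a change differed between routes.

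Cells injected into the tail vein reach the lung capillaries directly, so repeated rounds select for survival in the blood, arrest in the lung and outgrowth there, and bypass growth in the kidney. Renal tubule cells and the tumours derived from them can lie anywhere between an epithelial state, held by E-cadherin, claudins and keratins, and a mesenchymal one, and the balance can move in either direction during spread. Metastases also contain host cells, chiefly macrophages and cells of the invaded organ, whose transcripts can be carried into a bulk RNA sample.

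Levels are log2 of the background-subtracted signal relative to the 75th percentile of commonly detected probes on the same array, so that a difference of 1 is a doubling, and levels of different probes are not compared. Of 55681 probes, 31.1 to 37.2% were well above background on each of the 8 arrays. Correlations between arrays were 0.974 to 0.988 within P4, 0.976 to 0.992 within P6 and 0.963 to 0.986 between the passages. The tumour line was recognisable in both groups. Krt8 and Krt18, the keratins of simple epithelia, had mean levels of 1.57 and 3.61 at P4 and of 1.37 and 3.74 at P6, and Pax8, a transcription factor of the renal lineage, had -2.71 at P4 and -3.17 at P6, none of them with an adjusted p under the threshold.

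Between P4 and P6 on the tail-vein route more genes rose than fell. With 1 probe per gene symbol, 176 of 12047 symbols (1.46%) passed an adjusted p of 0.01 in limma. Of these, 151 were higher at P6 (1.25% of the symbols tested) and 25 were lower (0.208%). Counted over all probes, 252 of 21374 passed (1.18%), 211 higher and 41 lower. The changes of the 151 symbols ran from 0.85 to 4.50 with a median of 1.90, and those of the 25 from -3.60 to -0.93 with a median of -1.87, against a median change of 0.04 over all symbols. Of the 151 that rose, 59 were not well above background on any P4 array and 131 not on either parental array. Of the 25 that fell, 21 were detected on all P4 arrays and 11 on no P6 array. Of all 12047 symbols, 333 were well above background on no P4 array, 2184 on neither parental array and 212 on no P6 array. On all P4 arrays 10213 were detected, a share close to that of the 25 that fell.

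**Figure D1:**
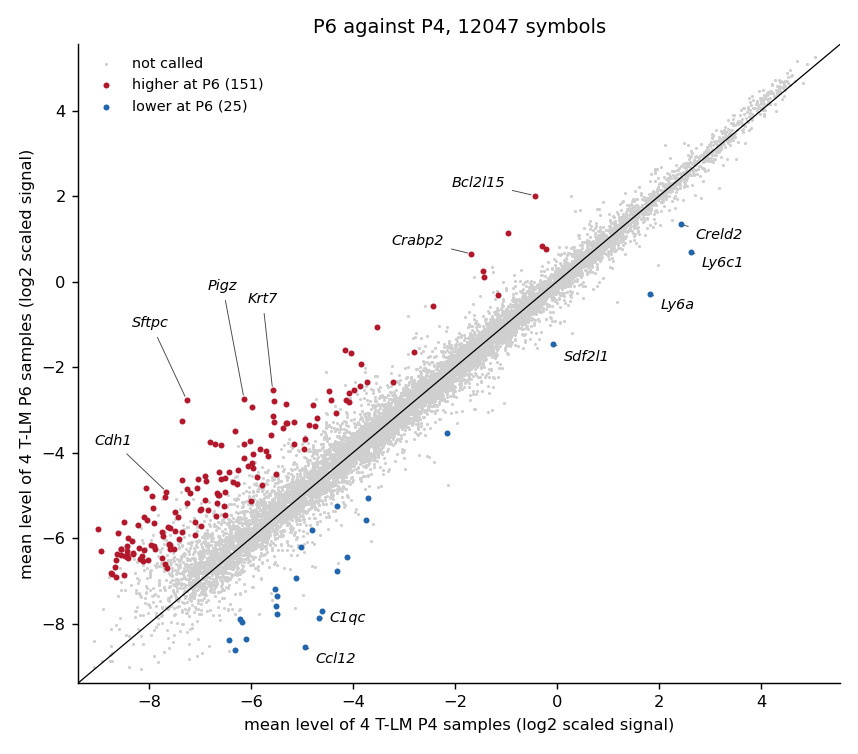
Mean level of the 4 T-LM P6 samples (vertical axis, log2 scaled signal) against that of the 4 T-LM P4 samples (horizontal axis, same scale) for 12047 symbols; red points are the 151 that passed as higher at P6, blue points the 25 that passed as lower, and the line marks equal levels. Most red points lie at low P4 levels, at the left of the plot.

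The 8 arrays lay on 8 different slides, so no comparison within a slide was possible. All P6 arrays shared one array position on their slides and no P4 array lay there, so that position and passage cannot be told apart within these samples. With slide as a term over all first-set arrays, 31 probes passed and all 252 kept their direction. With position as such a term, 1 probe passed, the median standard error was 0.887 against 0.253, and 236 of the 252 kept their direction. The number of probes that passed was 144 without P6 replicate 2 and 133 without P6 replicate 3.

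**Figure D2:**
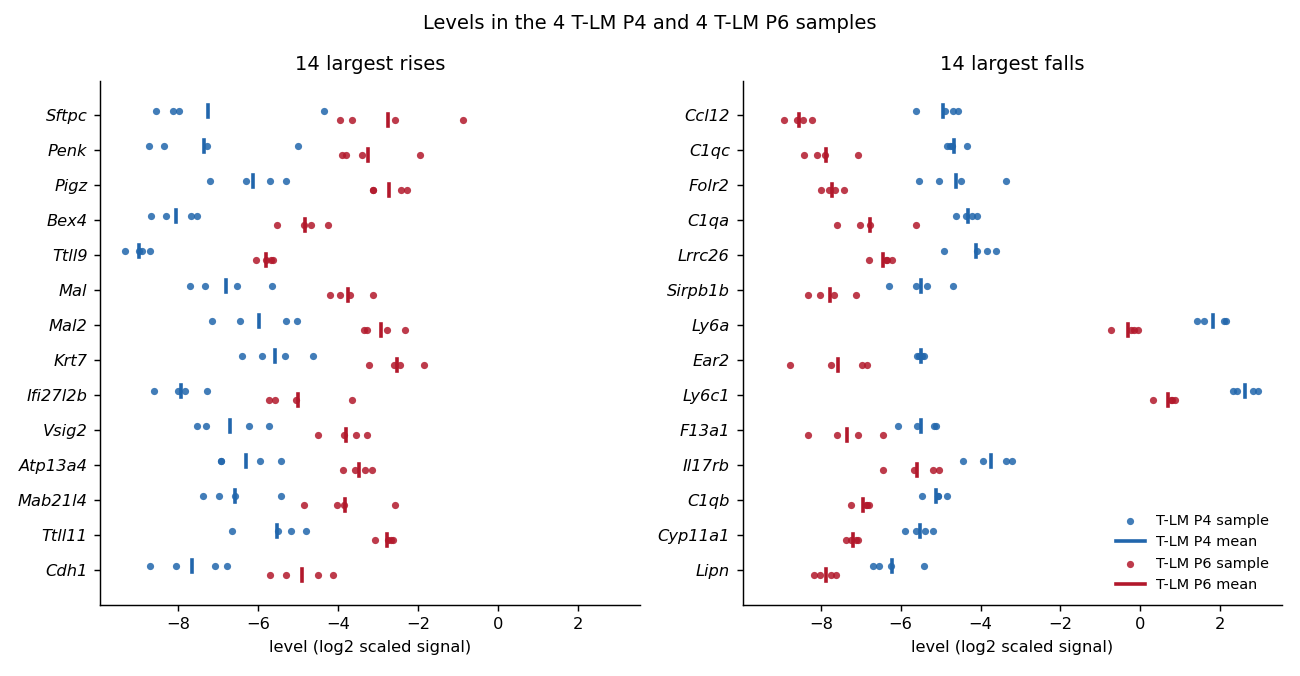
Levels (horizontal axes, log2 scaled signal) of the 14 largest rises (left) and the 14 largest falls (right) among called symbols detected on every array of at least 1 passage; dots are the 4 T-LM P4 samples (blue) and the 4 T-LM P6 samples (red), and vertical ticks are group means. In all 28 genes the P4 and P6 samples do not overlap.

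The largest rise was that of a lung epithelial gene. Sftpc, the surfactant protein C of alveolar type II cells, had levels of -7.99, -4.36, -8.13 and -8.56 in P4 replicates 1 to 4 and of -3.64, -0.88, -2.57 and -3.95 in P6 replicates 1 to 4. Only P4 replicate 2 was above background at P4, and it still lay below every P6 sample. The rise was 4.50 ± 0.73 (SE, n = 4 and 4), with an adjusted p of 0.00145, and it was 5.47 without P4 replicate 2. Sftpd, the collectin surfactant protein D, detected on 2 P4 arrays, rose by 2.36 ± 0.36 (adjusted p = 0.000894), and a second probe gave 2.49. Foxj1, the regulator of motile cilia, was well above background on no P4 array and on 3 of 4 P6 arrays (means -7.59 and -6.15, adjusted p = 0.00539). Its P6 mean was 1.56-fold above the lowest passing signals at P4. The call was lost when any 1 array other than P6 replicate 4 was left out (adjusted p of at most 0.0302).

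Krt7, a keratin of ductal and glandular epithelium, stood at -6.42, -4.63, -5.34 and -5.91 in the P4 samples and at -2.60, -1.86, -2.46 and -3.22 in the P6 samples. It was detected on all 8 arrays with no overlap, and rose 8.22-fold (3.04 ± 0.38, adjusted p = 0.000203). Cdh1, which encodes E-cadherin, was at -8.71, -6.78, -7.09 and -8.05 at P4 and at -5.31, -4.13, -4.52 and -5.70 at P6. It was above background on no P4 array and on all P6 arrays, at least 3.68-fold higher (adjusted p = 0.000831). In both genes P4 replicates 2 and 3 were the highest of their group, as were P6 replicates 2 and 3.

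Further genes of epithelial membranes and junctions moved with them. Mal and Mal2, proteolipids of apical transport, rose by 3.06 ± 0.39 and 3.06 ± 0.40 (adjusted p = 0.000214 and 0.000264). At P4 only 1 array for Mal and 2 for Mal2 were above background, so these sizes rest partly on signals at background. Cldn7, a claudin of tight junctions, rose by 2.03 ± 0.32 (adjusted p = 0.00106). Epcam, an adhesion molecule of epithelia, was detected on no P4 array and 2 P6 arrays (adjusted p = 0.00178). Its P6 mean was 1.52-fold above the lowest passing signals at P4. Cdh17, a cadherin of intestinal epithelium, was detected on no P4 array and 2 P6 arrays, with a P6 mean 1.46-fold above such signals. It passed (adjusted p = 0.00596), but not without P4 replicates 1, 2 or 3 or P6 replicates 1 or 4 (adjusted p of at most 0.0267). Vsig2, an immunoglobulin-domain membrane protein detected on 2 P4 arrays, rose by 2.90 ± 0.48 (adjusted p = 0.00154). S100a14, an S100 calcium-binding protein of epithelia, rose by 2.00 ± 0.32 (adjusted p = 0.00147). Of the 23 tested members of a list of cadherins, junction genes and regulators of the epithelial to mesenchymal transition, 4 passed as higher and none as lower, with a median change of 0.16. The summed level of this list, which its brightest genes dominate, went the other way, from 4.014 to 4.428 at P4 and from 3.736 to 4.015 at P6. Of 11 tested keratins Krt7 alone passed, and the median change of the 11 was 0.09. Krt19, another keratin of simple epithelia, was higher in all P6 than in all P4 samples, with a change of 1.26 ± 0.30 (adjusted p = 0.0262). Vim, the intermediate filament of mesenchymal cells, was detected on all 8 arrays, with means of 2.89 at P4 and 2.63 at P6 (adjusted p = 0.809).

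The transcription factors Foxa1, Foxa2 and Grhl2, which act in endoderm-derived and surface epithelia, were looked up after the values were seen. Foxa1 was detected on no P4 array and 2 P6 arrays (means -8.94 and -6.30, adjusted p = 0.000405). Foxa2 was detected on no P4 array and 3 P6 arrays (means -8.21 and -5.69, adjusted p = 0.000358). Their P6 means were 1.41-fold and 2.15-fold above the lowest passing signals at P4. Grhl2 had means of -7.11 and -5.54 (change 1.58 ± 0.37, adjusted p = 0.0269) and did not pass.

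The marker list of lung epithelium held 16 genes, of which 11 were bright enough to test. Of these, 9 were higher at P6, 3 passed (Sftpc, Sftpd and Foxj1) and the median change was 0.80. Sftpb, another surfactant gene, had means of -7.74 and -5.09 with overlapping samples (adjusted p = 0.0297), a call gained without P4 replicate 2 or P6 replicate 4 (adjusted p as low as 0.00297). The other 7, among them Scgb1a1 of club cells (0.13, adjusted p = 0.983), Napsa of type II cells (-0.40, adjusted p = 0.759) and Ager of type I cells (0.91, adjusted p = 0.573), did not pass. Nkx2-1, the lineage factor of the lung, was too dim to test, as were Sftpa1, Scgb3a2, Cxcl15 and Muc5b. The summed level of the 16 genes ranged from 0.547 to 0.728 at P4, from 0.731 to 1.27 at P6 and from 0.463 to 1.17 in the parental cells. The part of lung cells in these rises was not tested, and in bulk RNA fewer cells of a type and less RNA per cell cannot be told apart.

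Among the other large rises were genes of signalling peptides and enzymes. Penk, the enkephalin precursor, was at -8.74, -7.28, -5.01 and -8.37 at P4 and at -3.90, -3.79, -1.95 and -3.40 at P6. P4 replicate 3 alone was above background at P4, and P6 replicate 3 was the highest of all 8. The rise was 4.09 ± 0.72 (adjusted p = 0.00261), and it missed the threshold without P4 replicate 1 or 4 or P6 replicate 3 (adjusted p of at most 0.016). Pigz, a mannosyltransferase of glycosylphosphatidylinositol anchors, rose from -5.31, -6.31, -5.71 and -7.21 at P4 to -3.12, -3.13, -2.44 and -2.27 at P6, a 10.5-fold change (3.40 ± 0.36, adjusted p = 7.79e-05). Ttll9, a tubulin polyglutamylase, was at -9.35 to -8.71 in the P4 samples and at -6.07 to -5.64 in the P6 samples, at least 2.00-fold higher above background and with the lowest adjusted p of all probes (4.68e-08). Ttll11, of the same enzyme family, rose by 2.76 ± 0.43 (adjusted p = 0.00106). Bex4 was at least 3.91-fold higher and Ifi27l2b at least 3.45-fold higher (adjusted p = 7.79e-05 and 0.002). Wnt9a, a secreted WNT ligand, was detected on no P4 array and 3 P6 arrays (adjusted p = 0.000522). Its P6 mean was 2.26-fold above the lowest passing signals at P4. It was the only called gene among 19 tested of the WNT pathway.

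Of the genes of retinoid handling, 2 rose. Retinoic acid is carried in the cell by CRABP2 to its receptors, which bind response elements made of directly repeated hexamers, and CYP26A1 degrades it. Crabp2 was at -1.87, -1.12, -1.19 and -2.55 at P4 and at 0.76, 0.27, 0.79 and 0.77 at P6. All P6 samples lay above all P4 samples, with P6 replicate 2 the lowest of its group, and the rise was 5.03-fold (2.33 ± 0.33, adjusted p = 0.000503). Cyp26a1 was at -7.97, -5.79, -7.98 and -8.18 at P4, where only replicate 2 was above background, and between -5.52 and -5.24 in all P6 samples. Its rise of 2.10 ± 0.43 (adjusted p = 0.0095) passed without P4 replicate 2 but missed the threshold when any other of the 8 arrays was left out (adjusted p of at most 0.0447). Of 20 tested genes of retinoid metabolism and signalling these 2 passed, none passed as lower, 17 were higher and the median change was 0.43. Rarb, a receptor gene that retinoic acid is known to induce, looked up after its values were seen, had means of -7.82 and -5.47 with overlapping samples (adjusted p = 0.191).

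The promoters of Cyp26a1 and Rarb are shown because each held the retinoic acid element searched for, the letters GTTCA and AGTTCA with 5 bases of any kind between them, on either strand, set in capitals. Both are 250 bases before the gene start, 5′ to 3′ on the strand of the gene, from RefSeq (GRCm38.p6), at chr19:37697558-37697807 (plus strand) and chr14:16575477-16575726 (minus strand).
Cyp26a1: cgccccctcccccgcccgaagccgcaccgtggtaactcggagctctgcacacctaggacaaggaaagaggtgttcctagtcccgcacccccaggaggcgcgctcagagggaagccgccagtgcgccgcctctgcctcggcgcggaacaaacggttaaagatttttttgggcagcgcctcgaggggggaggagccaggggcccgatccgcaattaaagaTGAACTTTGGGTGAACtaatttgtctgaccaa
Rarb: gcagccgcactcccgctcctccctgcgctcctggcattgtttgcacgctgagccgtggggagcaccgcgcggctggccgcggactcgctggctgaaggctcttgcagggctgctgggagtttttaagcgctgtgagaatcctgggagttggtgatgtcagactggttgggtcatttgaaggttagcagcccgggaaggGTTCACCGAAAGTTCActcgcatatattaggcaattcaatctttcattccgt
The match lay 32 to 17 bases before the start in Cyp26a1, on the opposite strand, and 52 to 37 bases before it in Rarb. Of 32851 promoters of this length, 9 held the element (0.0274%). The letters leave out the first base of the first hexamer, which is A in Cyp26a1 and G in Rarb. Both promoters were shown for holding these letters, so this share does not measure how unexpected their matches are. Of the 112 risen symbols for which RefSeq gave a promoter here, Cyp26a1 alone held it, that is 1, and of the 21 fallen symbols none did.

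Of the integrin genes, 3 beta chains rose. Itgb6, which pairs into the epithelial receptor that activates latent TGF-beta, was not well above background on any P4 array (-8.47, -7.89, -7.94 and -8.08) and was so on all P6 arrays (-5.66, -5.31, -4.95 and -6.09), at least 2.45-fold higher (adjusted p = 0.000102). Itgb3, the chain of the vitronectin receptor, was at -3.94, -4.06, -3.88 and -4.43 at P4 and at -2.84, -2.43, -2.90 and -3.07 at P6 (1.27 ± 0.20, adjusted p = 0.00137). Itgb2, the leukocyte integrin chain, rose by 1.15 ± 0.20 (adjusted p = 0.00255), a call lost without P4 replicate 1 or P6 replicate 2 or 3 (adjusted p of at most 0.0148). These were 3 of 19 tested integrins, none of which passed as lower. Basement membrane genes, the substrate of many integrins, were higher at P6 in 21 of 21 with a median of 0.41, but none passed. Lamb3, a laminin-332 chain, had the smallest p among them, with means of -4.79 and -2.92 (adjusted p = 0.0537).

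Of 17 tested Bcl2 family genes, 1 passed. Bcl2l15 was at -0.65, -1.17, 0.76 and -0.70 at P4 and at 1.83, 1.98, 2.10 and 2.13 at P6. The P6 samples were close to each other and all above P4 replicate 3, the highest of its group. The rise was 2.45 ± 0.50 (adjusted p = 0.00978), and it missed the threshold without any 1 array other than P4 replicate 3 (adjusted p of at most 0.0426). Of the other 2 probes, 1 passed (2.45, adjusted p = 0.00259) and 1 did not (2.47, adjusted p = 0.0105). Of 9 tested X-linked lymphocyte-regulated and germline genes, 3 passed as higher. Xlr3a was detected on no P4 array and 2 P6 arrays (adjusted p = 0.000771), its P6 mean 1.35-fold above the lowest passing signals at P4. Mageb4 rose by 1.58 ± 0.31 (adjusted p = 0.00651), a call kept only without P4 replicate 3 or P6 replicate 2 (otherwise an adjusted p of at most 0.0312). Xlr3b rose by 0.87 ± 0.18 (adjusted p = 0.0099), with a second probe at 1.79, but the first probe's call held only without P4 replicate 3 or 4 and its direction reversed with array position as a term. Xlr3a and Xlr3b are near-identical, so their probes may share signal.

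Immune-related genes moved both ways. H2-Eb1, a beta chain of MHC class II, was at -5.82, -5.26, -5.51 and -5.56 at P4 and at -3.75, -3.69, -2.51 and -3.23 at P6, with no overlap (2.24 ± 0.32, adjusted p = 0.000597). H2-Ab1, the beta chain of the other class II molecule, chosen after its values were seen, had means of -3.96 and -2.35. Its samples did not overlap, but it did not pass (adjusted p = 0.321), and its alpha chain gene H2-Aa was too dim to test. Hc, complement component C5, was detected on no P4 array and all P6 arrays, at least 1.90-fold higher (adjusted p = 0.000206). Ccl17, an attractant of T cells, was likewise detected at P6 alone and at least 3.83-fold higher (adjusted p = 0.00154). Ccl5, another T cell attractant, rose by 2.34 ± 0.44 (adjusted p = 0.00466), and missed the threshold without P4 replicate 1 or 4 or P6 replicate 1, 3 or 4 (adjusted p of at most 0.0247). Rac2, a small GTPase of blood cells, rose by 1.90 ± 0.24 (adjusted p = 0.000203). Cd79b, of the B cell receptor, was detected on 2 P6 arrays and no P4 array (adjusted p = 0.000874). Its P6 mean was 1.41-fold above the lowest passing signals at P4. It was the only one to pass of 8 tested lymphocyte markers, whose summed level was -0.84 to -0.62 at P4 and -0.83 to -0.38 at P6.

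The 3 largest falls were those of Ccl12, C1qc and Folr2. Ccl12, a monocyte attractant, was at -5.61, -4.70, -4.90 and -4.57 at P4 and at -8.46, -8.92, -8.59 and -8.22 at P6. It was above background on all P4 and no P6 arrays, at least 3.43-fold lower at P6 (adjusted p = 3.58e-06). C1qc, a chain of complement C1q, was at -4.85, -4.76, -4.35 and -4.72 at P4 and at -8.10, -7.07, -7.89 and -8.42 at P6, at least 4.15-fold lower (adjusted p = 0.000295). Both sets of P4 samples lay close together and far above every P6 sample. C1qb was at least 2.94-fold lower (adjusted p = 0.000203), although its direction reversed with array position as a term, and C1qa fell by 2.44 on the log2 scale (SE 0.48, adjusted p = 0.00671), a call held only without P6 replicate 2 (otherwise an adjusted p of at most 0.0322).

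Folr2, the folate receptor of resident macrophages, was at -4.50, -5.55, -5.05 and -3.36 at P4 and between -7.99 and -7.41 in the P6 samples, at least 4.31-fold lower (adjusted p = 0.000676). Mrc1, the macrophage mannose receptor, looked up after its values were seen, had means of -4.30 and -6.58 with no overlap and narrowly missed the threshold (adjusted p = 0.0113). Of 21 tested complement genes 1 passed as higher, Hc, and 3 as lower, the C1q chains. Of 11 CC chemokines 2 passed as higher and 1 as lower.

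Of 28 macrophage markers 24 were tested, 20 were lower at P6, 3 passed as lower, the C1q chains, and 1, H2-Eb1, as higher, and the median change was -0.65. Their summed level was 2.73 to 3.29 at P4 and 2.48 to 2.85 at P6, and 1.47 to 1.82 in the parental cells. Ptprc, the pan-leukocyte CD45, was above background on 2 of 4 arrays in each group (means -6.69 and -6.87), Csf1r on all 8 (means -2.38 and -3.03), and Spi1, Marco and Siglecf were too dim to test. Cd68 was higher at P6 by 0.16 (adjusted p = 0.958). Of 10 red cell and platelet markers, 2 were tested and none passed. The summed level of the 10 was 0.745 to 1.92 at P4 and -0.943 to 0.0405 at P6. It lay close to that of Pf4, platelet factor 4, alone (0.696 to 1.87 and -1.11 to -0.0512), so it adds little to this gene. Pf4 had means of 1.18 and -0.47 with no overlap, but did not pass (adjusted p = 0.635). The summed fibroblast and pericyte markers overlapped, at 1.26 to 3.42 and 1.27 to 3.00. The part of host cells in these falls was not tested.

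Falls outside the macrophage markers included bright surface genes. Ly6a, which encodes the stem cell antigen SCA-1, was at 1.43, 2.10, 1.60 and 2.14 at P4 and at -0.07, -0.73, -0.23 and -0.17 at P6, a fall of 4.34-fold with no overlap (-2.12 ± 0.33, adjusted p = 0.00106). Ly6c1 was at 2.33, 2.81, 2.41 and 2.94 at P4 and at 0.77, 0.31, 0.80 and 0.86 at P6 (-1.94 ± 0.32, adjusted p = 0.00189). Its call was lost without P6 replicate 2 (adjusted p = 0.0102), a second probe did not pass (-1.52, adjusted p = 0.0262), and probes of the Ly6 family may share signal. Il17rb, a receptor chain for interleukin 25, was detected on all 8 arrays and fell by 1.84 (SE 0.34, adjusted p = 0.00373), but not without P4 replicate 1 or 2 or P6 replicate 2 or 3 (adjusted p of at most 0.0181). Cyp11a1, the cholesterol side-chain cleavage enzyme, was at least 2.30-fold lower (adjusted p = 0.00332), but not without P4 replicate 1 or 4 or P6 replicate 2, 3 or 4 (adjusted p of at most 0.0166). Lrrc26, an auxiliary subunit of BK potassium channels, fell by 2.31 on the log2 scale (SE 0.28, adjusted p = 0.000197). Aqp3, the basolateral water channel of collecting duct, fell by 1.19 (SE 0.19, adjusted p = 0.00139) and was the only one to pass of 6 tested kidney tubule markers.

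Of the genes of the endoplasmic reticulum (ER) stress response, 2 fell. The unfolded protein response induces such genes through ER stress response elements, a CCAAT box and a CCACG box set a fixed distance apart. Creld2, an ER stress-induced disulphide isomerase, was at 2.29, 2.07, 2.95 and 2.40 at P4 and at 1.31, 1.19, 1.47 and 1.38 at P6. P4 replicate 3 was the highest, and the fall of 1.09 on the log2 scale (SE 0.18, adjusted p = 0.00176) held in every run with 1 array left out. Sdf2l1, a partner of the chaperone BiP, was at -0.50, -0.39, 0.56 and 0.04 at P4 and at -1.28, -2.05, -1.40 and -1.14 at P6. Its fall of 1.39 (SE 0.28, adjusted p = 0.0095) passed with all arrays but in no run with 1 array left out (adjusted p from 0.0105 to 0.0467). Of 38 tested genes of the ER stress response these 2 passed as lower, 10 were higher and the median change was -0.23. Calr, calreticulin, had means of 2.26 and 1.45 (adjusted p = 0.0443), Syvn1, a ubiquitin ligase of ER-associated degradation, a change of -0.81 (adjusted p = 0.0297), and Hspa5, which encodes BiP, one of -0.45 (adjusted p = 0.591). The targets of the amino acid response, Asns and Trib3, had changes of 0.15 and 0.02.

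The promoters of the 2 fallen ER genes are shown to set them against the element. It was searched for on both strands as CCAAT and CCACG with 9 bases of any kind between them, and its CCAAT part alone was searched for separately, so that the 2 searches overlap. The windows are the 250 bases before each start, 5′ to 3′ on the strand of the gene, from RefSeq (GRCm38.p6), at chr15:88819396-88819645 (Creld2, plus strand) and chr16:17132384-17132633 (Sdf2l1, minus strand), with the ER stress response element in capitals in the first and CCAAT boxes of either strand in the second.
Creld2: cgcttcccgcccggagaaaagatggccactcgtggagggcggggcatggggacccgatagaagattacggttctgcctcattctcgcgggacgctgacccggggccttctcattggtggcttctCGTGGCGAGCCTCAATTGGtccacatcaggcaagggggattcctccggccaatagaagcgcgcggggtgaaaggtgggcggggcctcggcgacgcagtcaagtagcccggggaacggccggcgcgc
Sdf2l1: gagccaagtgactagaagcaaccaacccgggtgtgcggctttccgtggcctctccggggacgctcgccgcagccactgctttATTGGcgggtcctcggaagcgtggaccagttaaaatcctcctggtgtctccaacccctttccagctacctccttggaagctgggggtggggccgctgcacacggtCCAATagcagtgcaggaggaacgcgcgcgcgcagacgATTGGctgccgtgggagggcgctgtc
The element lay 126 to 108 bases before the start of Creld2, on the opposite strand. Sdf2l1 held no match to these letters and 3 CCAAT boxes, the first bases of which lay 168, 63 and 26 bases before the start. Of all 32851 promoters, 37 held the element (0.113%) and 11120 held a CCAAT box (33.8%). The element was in 1 of 21 promoters of fallen symbols and in 2 of 112 of risen ones, and the CCAAT box in 9 and 40 of them.

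The acute phase genes Saa1 and Saa2 and the complement gene Cfb, of which the study followed Saa2 and Cfb as soluble markers, did not pass. Saa1, an acute phase apolipoprotein, was at -1.38, -1.50, -1.35 and -1.11 at P4 and at -2.41, -2.73, -1.81 and -1.98 at P6 (adjusted p = 0.459), and its direction reversed with array position as a term. Saa2 was above background on 1 P4 array and no P6 array, with means of -6.83 and -8.52 (adjusted p = 0.0352). Cfb, complement factor B, was at -4.72, -4.66, -4.40 and -4.37 at P4 and at -3.96, -3.58, -3.35 and -3.60 at P6 (0.91 ± 0.24, adjusted p = 0.0555). In each of the 3 the samples of the passages did not overlap, Saa1 and Saa2 being higher at P4 and Cfb at P6, as was so for 3.92% and 6.89% of all symbols in the respective direction. The T-LM signature of the study is given as human genes, of which C4orf48, CYP3A4 and SERPINA3 were not matched to a mouse gene here. Of the 21 matched, which were chosen on these samples and are no independent evidence, 3 passed as higher (Pigz, Crabp2 and Dyrk4), none as lower, and the median change was 0.52. Dyrk4, a protein kinase detected on 2 P4 arrays, rose by 1.63 ± 0.33 (adjusted p = 0.00854), a call held only without P4 replicate 4 (otherwise an adjusted p of at most 0.0331).

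Large programmes of growth passed nowhere. None of 49 tested genes of cell cycle and DNA replication passed in either direction (median -0.01), nor any of 40 of hypoxia and glycolysis (median -0.15), 39 interferon-stimulated genes (median -0.06), 35 of cholesterol and fatty acid synthesis (median 0.12) or 34 of the TGF-beta and BMP pathway (median 0.13). Among 80 ribosomal protein genes 71 were higher at P6 by small amounts (median 0.14) and none passed.

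**Figure D3:**
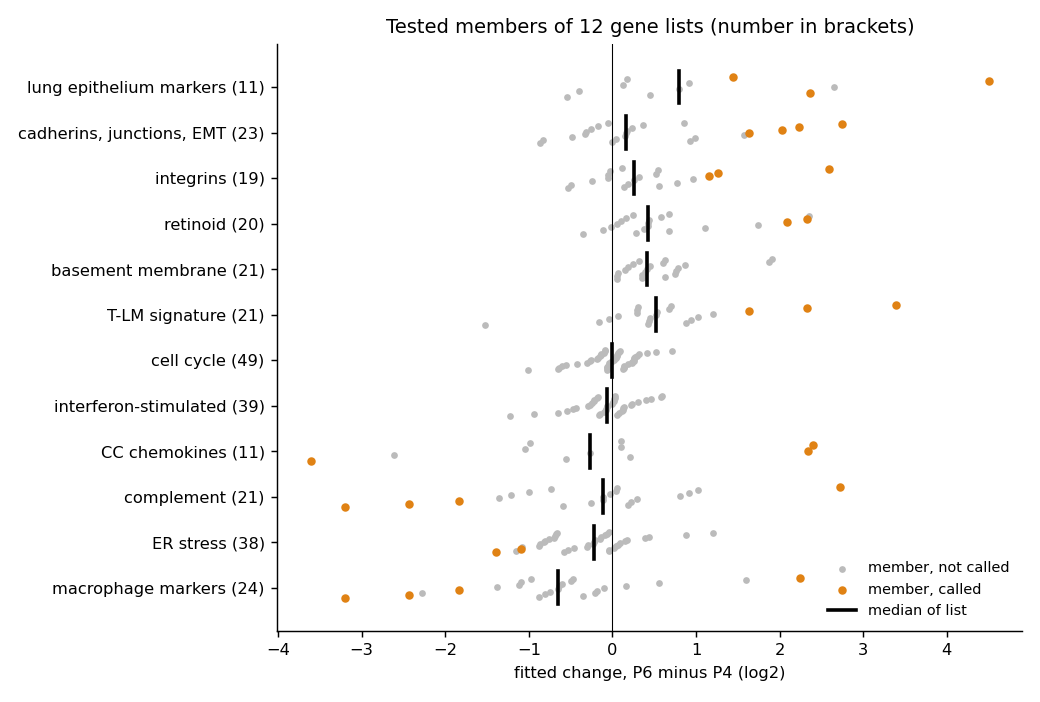
Fitted change from P4 to P6 (horizontal axis, log2) of each tested member of 12 gene lists, with the number tested in brackets; orange dots passed an adjusted p of 0.01, grey dots did not, and black bars are list medians. Called members stand to the right in the lung epithelium, junction, integrin and retinoid lists and to the left in the ER stress and macrophage lists, where H2-Eb1 is the exception at 2.24.

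The levels in the other passages of the route showed 3 courses. Crabp2 climbed at each step, with medians of -3.58 in P0, -2.83 at P2, -2.33 at P3, -1.53 at P4, -0.37 at P5 and 0.77 at P6, and the P5 and P6 ranges met at 0.27. Bcl2l15 was likewise higher at P5 than at P4 by its median (-0.16 against -0.67), and Itgb3 ran from -4.43 to -3.88 at P4, from -3.97 to -3.08 at P5 and from -3.07 to -2.43 at P6. By contrast Krt7, Sftpc, Cdh1, Mal2 and H2-Eb1 were not above background on any of the 6 P5 arrays, although Krt7 and H2-Eb1 were on all 4 P4 arrays. Median levels at P5 were -7.78 for Krt7 and -7.76 for H2-Eb1. On the P5 arrays 25.1 to 32.2% of probes were well above background, against 31.1 to 37.2% on the P4 and P6 arrays. The P5 arrays also shared an array position that no P4 or P6 array of the route had, so position and passage cannot be told apart there either. Ccl12, C1qc and Folr2 were above background at P4 alone among P0 and P2 to P6, and Creld2 was at 2.35 at P4 and between 0.98 and 1.35 in the medians of the other passages. Ly6a was at -1.19 in P0, 1.85 at P4, 1.51 at P5 and -0.20 at P6. Of the 151 risen symbols, 87 had a P5 mean between those of P4 and P6, 47 at or below P4 and 17 at or above P6. For the 25 fallen symbols the P5 mean lay between in 14, at or below P6 in 9 and at or above P4 in 2. Over all 12047 symbols it lay between in 2006. It was at or below the lower of the P4 and P6 means in 6112, and at or above the higher in 3929. Symbols called for a wide gap between P4 and P6 hold a P5 mean between them more readily than other symbols, so these counts cannot be compared. Of the 151, 81 were above background on no P5 array, against 1080 of all 12047. The P5 mean was nearer to that of P4 in 99 of the 151 and in 6250 of all symbols. No test was made of these courses.

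**Figure D4:**
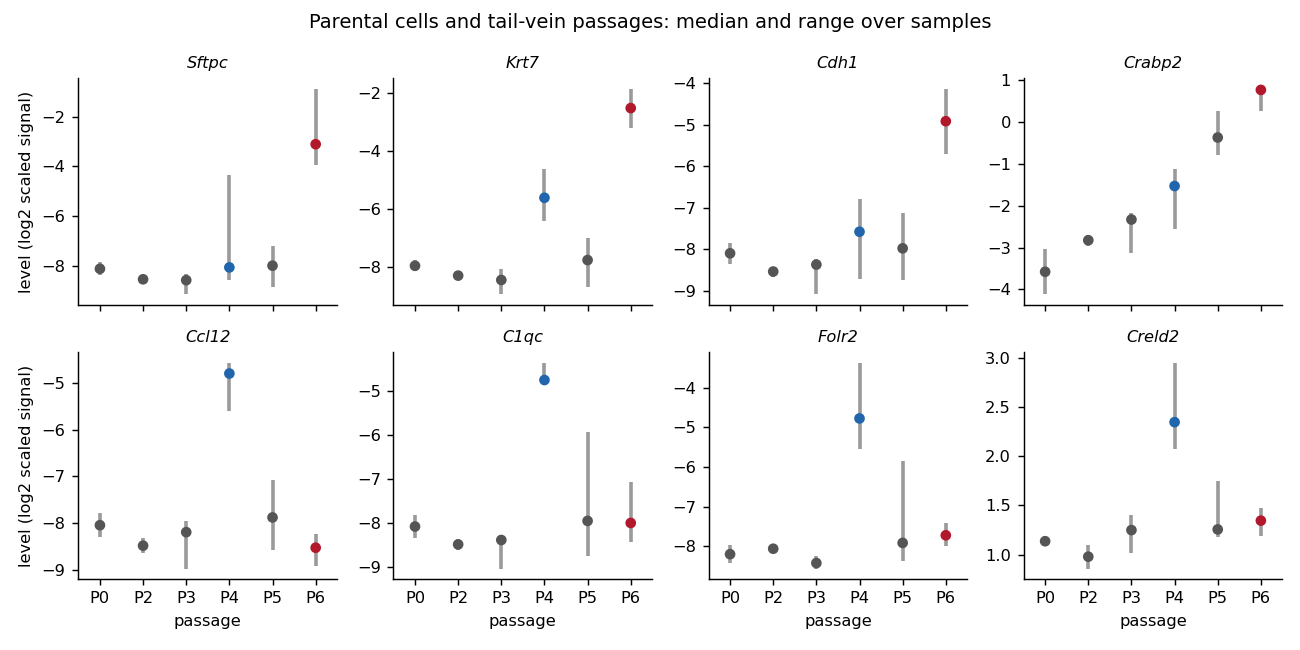
Levels (vertical axes, log2 scaled signal) of 8 genes in parental cells and tail-vein passages (horizontal axis), with dots for group medians and bars from the lowest to the highest sample; n was 2, 2, 3, 4, 6 and 4 from P0 to P6. Crabp2 climbs throughout, Sftpc, Krt7 and Cdh1 stand high at P6, and Ccl12, C1qc, Folr2 and Creld2 stand high at P4.

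The kidney route was set beside the tail-vein route to find changes that differed between them. The difference of the P6 minus P4 changes passed for 29 of 12367 symbols (0.234%), 23 with the more positive change on the tail-vein route and 6 with the more positive change on the kidney route. Pigz changed by 3.40 in T-LM and by -1.06 in KPT, a difference of 4.45 ± 0.55 (adjusted p = 2.35e-05). For Rac2 the changes were 1.90 and -1.60 (difference 3.51 ± 0.53, adjusted p = 0.000769), and for Pamr1, a regeneration-associated muscle protease homologue, 2.45 and -1.03 (difference 3.48 ± 0.51, adjusted p = 0.000523). For Pigz, KPT was above background on 2 of 3 P4 arrays and no P6 array. Ttll9 was above background on all T-LM P6 arrays and on no array of T-LM P4, KPT P4 or KPT P6 (adjusted p = 3.01e-07), so that the size of its difference was not measured. For Grhl2 the changes were 1.58 in T-LM and -1.56 in KPT (difference 3.13 ± 0.53, adjusted p = 0.00211). Its P4 and P6 means were -7.11 and -5.54 in T-LM and -4.04 and -5.60 in KPT, so T-LM P6 lay no higher than KPT P4. The calls of Pigz, Rac2, Pamr1, Ttll9 and Grhl2 held in every run with 1 array left out.

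Itgb6, Hc, Foxa1 and Foxa2 passed as well (adjusted p = 0.00564, 0.00898, 0.00564 and 0.00564), and like Ttll9 they were above background at T-LM P6 alone, which leaves the size of the difference unmeasured. The chemokine Cxcl16, detected on all arrays of the 4 groups, had changes of 1.11 and -0.80, a difference of 1.92 ± 0.34 (adjusted p = 0.00387). In the opposite direction the largest difference was that of Hoxb13, a homeobox gene of posterior identity, which was above background on all 5 KPT P6 arrays and on no array of KPT P4, T-LM P4 or T-LM P6 (adjusted p = 2.35e-05), a call that held in every run with 1 array left out. Gdf5, a BMP family ligand, was above background on 3 KPT P6 arrays and on none of the other groups (adjusted p = 0.00587), a call lost for 10 of 16 arrays left out 1 at a time (adjusted p of at most 0.0283). Then came Sdf2l1 (-1.39 in T-LM and 0.82 in KPT, difference -2.21 ± 0.39, adjusted p = 0.00423), Creld2 (-1.09 and 0.58, difference -1.67 ± 0.30, adjusted p = 0.00564) and Tm6sf1 (-1.08 and 0.78, difference -1.85 ± 0.34, adjusted p = 0.00564, with a second probe at -0.18 in T-LM). Apart from those of Hoxb13 and Gdf5, each of these 8 calls was lost for some of the 16 T-LM and KPT arrays of P4 and P6 left out 1 at a time, from 4 arrays for Cxcl16 (T-LM P4 replicate 1, T-LM P6 replicates 2 and 3 and KPT P4 replicate 1) to 12 for Hc, with an adjusted p of at most 0.0328 (Hc without T-LM P6 replicate 3). For Sdf2l1 and Creld2 the highest, 0.0196 and 0.0197, came without KPT P4 replicate 3.

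For many other genes no difference between the routes was shown. Sftpc changed by 0.22 ± 0.61 in KPT, and the difference of 4.28 ± 0.85 narrowly missed the threshold (adjusted p = 0.011), as did that of Sftpd (2.25 ± 0.45, adjusted p = 0.0114). Krt7 changed by 1.43 ± 0.61 in KPT (difference 1.61 ± 0.85, adjusted p = 0.621) and Crabp2 by 1.58 ± 0.49 (difference 0.75 ± 0.69, adjusted p = 0.856). The changes in KPT were -3.28 ± 1.04 for Ccl12, -2.77 ± 1.07 for C1qa and -2.59 ± 1.09 for C1qc, with differences between the routes of -0.33 ± 1.45, 0.34 ± 1.50 and -0.60 ± 1.52 (adjusted p = 0.987, 0.987 and 0.973). In KPT P4 these genes varied widely between the 3 samples, Ccl12 from -8.65 to -1.64. Of the 151 symbols risen in T-LM, 103 were higher at P6 in KPT as well, with a median change of 0.25, and of the 25 fallen ones 16 were lower. These shares were 68.2% and 64.0%, against 54.5% of all 12047 symbols that moved the same way on both routes.

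**Figure D5:**
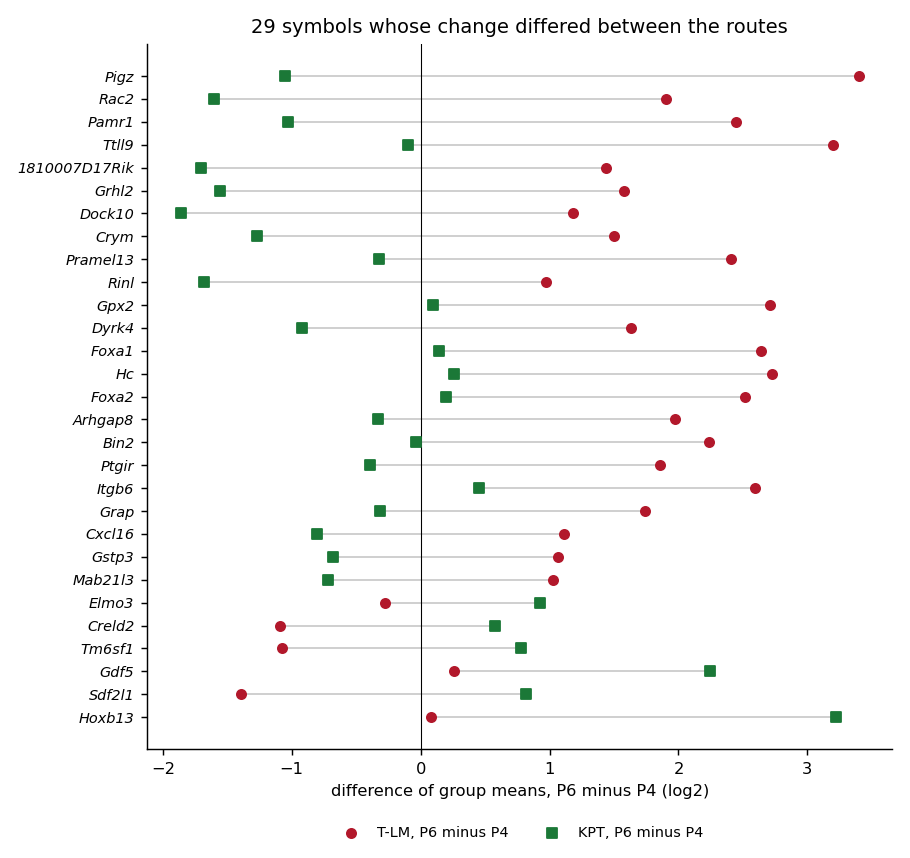
Difference of group means, P6 minus P4 (horizontal axis, log2), on the tail-vein route (red circles) and the kidney route (green squares) for the 29 symbols whose change differed between the routes, joined by grey lines. For 23 symbols the red circle lies to the right of the square, with Pigz at 3.40 against -1.06.

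The balance of long mRNAs to ribosomal protein mRNAs, on which the passages were matched, is the mean level of 10 long mRNAs minus that of 59 ribosomal protein mRNAs. It was -4.73, -4.99, -5.17 and -5.59 in P4 replicates 1 to 4 and -5.25, -4.55, -4.66 and -5.36 in P6 replicates 1 to 4. The means were -5.12 ± 0.36 and -4.95 ± 0.41 (SD, n = 4 each), and the samples overlapped. Since the passages were chosen for a similar balance, these values are a description. Of all 26 tested long mRNAs, 21 were higher at P6 with a median change of 0.44, and none passed. The median change of the 80 tested ribosomal protein genes was 0.14.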

How the data were processed

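GFP-RENCA cells of tail-vein passages 4 and 6 were profiled from Cy5-labelled total RNA, 4 arrays each, per the labels. Values used from the deposited scanner output were intensities per spot, namely the processed intensity, from which the authors' Feature Extraction software (11.0.1.1) had subtracted background, the median intensity and its background. The value table deposited by the authors is in log2 units and matched the quantile-normalized log2 raw median signal (largest difference 0.107, column medians 6.21 to 6.23, with no gene centring). No genome build was named for the array, so coordinates come only from the promoter table.

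Of 62976 spots, 3671 controls and, per array, 141 to 454 outlier spots were left out and 55681 probes remained. Through RefSeq accessions (GRCm38.p6), 28026 probes matched 21154 symbols and 27655 matched none. For counts over symbols the probe brightest on average stood for its gene. Levels were log2 processed signal minus the 75th percentile of each array over 11289 probes well above background on all 70 arrays. limma 3.58.1 in R 4.3.3 was fitted to the 21 first-set arrays of P0 and T-LM P2 to P6, over probes well above background on at least 2 of them, with a Benjamini-Hochberg adjusted p of 0.01 over all of them as threshold. The 38 arrays that add KPT P2 to P6 gave the difference between routes. Where a gene was above background on no array of 1 group, the fold sets the other group's mean against the lowest passing signal of each array of the undetected group. It is a bound, given as at least, only where the other group was detected on all its arrays. Elsewhere the other group's mean includes signals at background. Arrays have no counting depth, and their number limits the precision.

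Named genes were the 14 largest rises and falls among non-overlapping called symbols detected on every array of 1 group, up to 4 called genes of each list (or the 2 with the smallest p), Saa1, Saa2 and Cfb, the called T-LM signature genes, and the 3 largest differences between routes in each direction. Those differences were ranked among symbols tested in the T-LM fit, and Hoxb13 and Gdf5, not tested there, were added outside the rule. Some other genes outside it are said to be chosen after their values were seen. Further ones given beside them, among them Sftpb, Vim, Krt8, Krt18, Calr, Asns and Trib3, were not picked by the rule either. A gene that the rule names is not reported here. The members and lists were chosen with earlier results of these data known. The scripts were tested on simulated data. Alternatives covered background correction, scaling, filters, samples, slide, position, replicate number, weights and each array left out. Normexp (offset 50) used the median signal, since the mean signal was not used here.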

Additional observations from a re-analysis of the deposited data

Results flagged for a closer look

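Groups of 4 samples were examined for single genes, those outside the naming rule included, and for the balance of long to ribosomal protein mRNAs. In 12 of the 170 groups (7.06%), all of them of genes, 1 sample stood apart from the other 3 by Dixon's criterion. Chance alone marks about 1 group in 20. At P4 these were replicate 2 for Sftpc (-4.36), Krt19 (-1.84), Cyp26a1 (-5.79) and Rarb (-6.14), replicate 1 for Foxj1 (-7.78), and replicate 4 for Dyrk4 (-6.13) and Pamr1 (-6.08). At P6 they were replicate 2 for Crabp2 (0.267), Mageb4 (-4.53), Ly6c1 (0.312) and Pdia3 (0.23) and replicate 3 for Ccl17 (-4.20). The 4 epithelial and retinoid genes marked in P4 replicate 2 were all higher there than in the other P4 samples. Over all symbols, the sample with the highest level at P6 was replicate 2 for 38.4% and replicate 3 for 31.9%, and among the 151 risen symbols for 38.4% and 32.5%.

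The change from P4 to P6 differed between the tail-vein and the kidney route by the limma test of the difference itself for Pigz (4.45), Rac2 (3.51), Pamr1 (3.48), Ttll9 (3.29), Grhl2 (3.13), Dyrk4 (2.55), Foxa1 (2.50), Hc (2.47), Foxa2 (2.32), Itgb6 (2.14) and Cxcl16 (1.92), and, with the more positive change on the kidney route, for Hoxb13 (-3.14), Sdf2l1 (-2.21), Gdf5 (-1.99), Tm6sf1 (-1.85) and Creld2 (-1.67), all as log2 differences. For Ttll9, Foxa1, Hc, Foxa2 and Itgb6, above background at T-LM P6 alone, and for Hoxb13 and Gdf5, above background at KPT P6 alone, the value depends on signals at background and is no measured size. The call of Dyrk4 was lost for 9 of 16 arrays left out 1 at a time (adjusted p of at most 0.0253, without KPT P4 replicate 3).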

How the results depend on the processing

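For T-LM P6 minus P4, 252 probes passed, and 183 to 340 did so under normexp, the percentile over all probes, quantile normalization, the deposited series values, no filter or a stricter one, slide as a random block, the index as a covariate or only the P4 and P6 arrays. The count was 140 with a floor on dim signals, 119 with all first-set arrays in the fit, 31 with slide and 1 with array position as a fixed term over those arrays, 666 with array quality weights and 487 at an adjusted p of 0.05. For the difference between routes, 39 probes passed, against 19 with normexp, 73 with the floor, 6 with all first-set arrays, 1 with slide and 0 with position as a fixed term (689 at an unadjusted p under 0.05 in limma, the only tool run) and 296 with weights. With each array left out in turn the counts ran from 133 to 195 and from 16 to 60. The route count was 22 without T-LM P4 replicate 1, 24 without T-LM P4 replicate 4, 20 without T-LM P6 replicate 2, 16 without T-LM P6 replicate 3, 60 without KPT P4 replicate 5, 18 without KPT P6 replicate 3 and 21 without KPT P6 replicate 4. With position as a fixed term the change reversed for Xlr3b (-1.74), C1qb (0.86), Saa1 (1.01) and Pf4 (2.71). The causes were not tested. The median of all probes in the difference between routes was 0.08, and -0.07 with the percentile over all probes. The index difference was 0.149 to 0.256 under other scalings and 0.00793 to 0.3 with 1 array left out. Counting all probes of a symbol left 36 called list genes. Whether the replicate numbers paired the samples stayed unclear (correlations of same-numbered deviations -0.0469, 0.571, 0.539 and -0.0842, with 2 of 4 P6 samples correlating best with their own number). The replicate block gave 218 and 40 probes. Signals near background limit the precision of the genes detected in 1 passage only.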

Other observations

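Groups of related genes rose together outside the lists, chosen after their values were seen. The drug efflux transporter genes Abcb1a and Abcb1b rose by 1.37 ± 0.21 and 1.90 ± 0.29 (adjusted p = 0.000834 and 0.000831). Abcb1b was at -4.73, -4.48, -5.07 and -4.83 at P4 and at -3.08, -2.67, -2.88 and -2.87 at P6, so that the 2 passages were well apart. Abcb4, the phospholipid transporter, rose by 1.45 ± 0.28 (adjusted p = 0.00631), a call lost whichever of the 8 arrays was left out (adjusted p from 0.0111 to 0.0336). None of the 3 was above background in the parental cells, and no difference between the routes was shown for them (adjusted p = 0.223, 0.0801 and 0.564). The sequences of these transporters are alike, and their probes may share signal.

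Ctag2l1 and Ctag2l2, near-identical cancer-testis antigen genes of the X chromosome, rose by 2.37 ± 0.38 and 2.55 ± 0.43 (adjusted p = 0.00147 and 0.00211). The median of Ctag2l1 was -1.72 at P5 and -1.70 at P6. Of the non-classical MHC class I genes H2-M10.1, H2-M10.2 and H2-M10.3, whose probes may also share signal, H2-M10.2 was at least 1.79-fold higher (means -7.72 and -5.95, adjusted p = 0.000676). H2-M10.1 rose by 1.94 (adjusted p = 0.00582) and H2-M10.3, detected on 1 P4 array, by 1.58 (adjusted p = 0.00466). These calls were lost for all 8 arrays and for all but P6 replicate 2, respectively, left out 1 at a time (adjusted p of at most 0.0257 and 0.0206).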
